A study of Mus musculus with 6 samples.

Results

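The factors described here are the homeobox, forkhead, GATA and Sox transcription factors on an array of the embryonic mouse pancreas, apart from the SoxC genes and the Pax and Foxa genes of the endocrine and foregut programmes. They were chosen by name: probes with 1 gene symbol that begins with Hox, Lhx, Nkx1 to Nkx5, Pax, Pou, Irx, Dlx, Msx, Meis, Pbx, Tgif, Cdx, Barx, Prrx, Onecut, Hnf, Pitx, Otx, Isl, Fox (from Foxb to Foxs), Gata or Sox, without Pax4, Pax6, Sox4, Sox11 and Sox12. The rule found 104 of 21888 probes, for 69 genes. Of these genes 61 encode the factors themselves and 8 are antisense RNAs that share a factor's name.

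Knockout RNA came from the pancreas of Sox4-/- embryos at embryonic day 12.5 and was set against RNA from the pancreas of their wild-type littermates. Sox4 is a DNA-binding protein of the SoxC family. Each of 6 spotted arrays carried both RNAs, and its value for a probe is 1 log2 ratio. Embryonic pancreases were pooled into 2 groups before RNA was isolated, and the RNA was linearly amplified, which the labels state for arrays 1 and 2. All arrays may have used a single pool of each genotype. The p-values below therefore weigh a difference against array-to-array spread, which may be purely technical, and say nothing of the spread among embryos. The ratio is read as knockout over wild type, so that a mean above 0 is higher in the knockout RNA. That direction is only likely, since it rests on the order of the channels and on the titles. No array had the channels exchanged, per the labels, so for any probe a channel bias and a true difference cannot be told apart.

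Homeobox proteins bind DNA through a helix-turn-helix fold, forkhead proteins through a winged helix, GATA proteins through zinc fingers and Sox proteins through an HMG box. In the embryo they set position along the gut, divide organ buds from one another and fix cell types within a bud. In the pancreas bud, Nkx2-2, Isl1, Onecut1 and Sox9 act in the epithelium and its endocrine cells, Cdx2 marks the intestine next to it, and Prrx, Hox, Meis and Pbx genes act mainly in the mesenchyme. Other members mark vessels and blood (Sox7, Sox17, Gata2) or nerve and neural crest (Sox8, Pou4f1, Isl2).

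A probe was tested where at least 4 arrays gave it a usable ratio, which left 100 member probes, covering all 69 genes, of 21247 probes tested in all. The 2 probes of Sox4 itself had means of -0.03 and -0.09 in the log2 ratio and neither passed the threshold used throughout, a limma adjusted p under 0.05, so the targeted gene checks neither the labels nor the direction. The sources do not place these probes inside or outside the deletion. A ratio holds no level, so the tissue could not be checked against its markers, and fewer cells of a type cannot be told apart from less RNA per cell. Of 9 liver marker probes 5 were past the threshold under 0, all of them for Afp or Fgb, with means from -2.06 to -0.92. Not past it were Alb at -0.29, Ttr at -0.21 and -0.18, and a further Afp probe at 0.01. The median of the whole list was -0.92, with medians from -1.21 to -0.53 on the 6 arrays. The part of liver RNA in the values below was not tested.

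The share of these probes past the threshold was near or under that of the whole array. At a limma adjusted p under 0.05, 3 of the 100 member probes were past the threshold, or 3% of them, against 5.49% of all probes tested. One probe, for Gata2, lay above 0, against 1.96% of all probes, and 2, for Nkx2-4 and Foxp1, lay under 0, against 3.53%. At an unadjusted p under 0.05 there were 26 member probes (17 above 0 and 9 under 0), or 26%, against 27.6% of all probes. A probe that misses the threshold is not shown to be equal in the 2 RNAs. The median of the 100 means was 0.05, against 0.03 over all probes, and the means ran from -1.09 to 1.27.

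**Figure D1:**
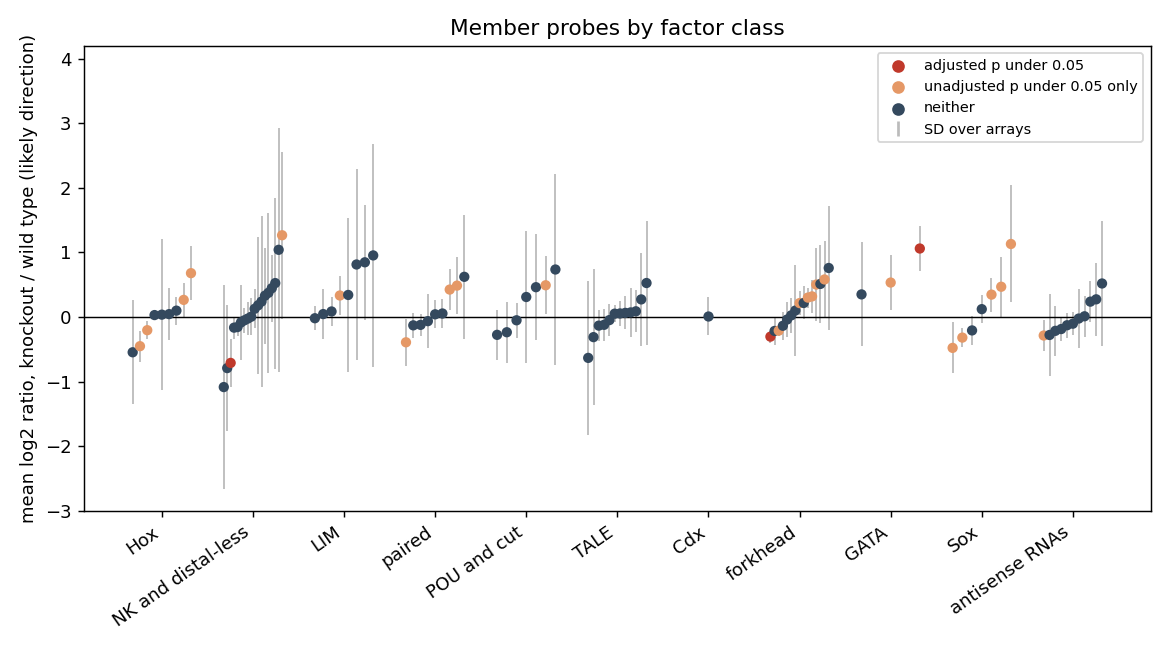
Mean log2 ratio (vertical axis, knockout over wild type as the likely direction) of each of the 100 tested member probes, by factor class, with the SD over arrays as a bar. Most means lie between -0.5 and 0.5, most probes further out have wide bars, and 3 points are past the adjusted threshold: 1 above 0 and 2 under 0.

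Leaving out an array removed calls over the whole array and not these 3 in particular. With any one of arrays 1, 3, 4, 5 and 6 left out, 8 to 32 of all probes passed the adjusted threshold in limma, against 1166 with all 6 arrays, and 0 member probes passed, while 20 to 25 still had an unadjusted p under 0.05. Without array 2, 849 of all probes and 3 members passed: the same probes of Gata2 and Nkx2-4, and Hoxd8 above 0, while Foxp1 did not. That Gata2 probe has no value on array 2, so this fit left out none of its ratios. The choice of scaling also moved the sides: without centring of the arrays 2 calls were above 0 (Gata2 and another Foxp1 probe) and 1 under 0 (Nkx2-4). With quantile normalization 6 were above 0 (Hoxd8, Gata2, Pax3, Foxp2, Sox17 and the other Foxp1 probe) and 0 under 0. In both of these fits the median over all probes stood at 0.13, a shift against which their means have to be read. Of all calls on the array, 35.7% were above 0 with centring, 67.5% without it and 72.6% with quantile normalization.

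**Figure D2:**
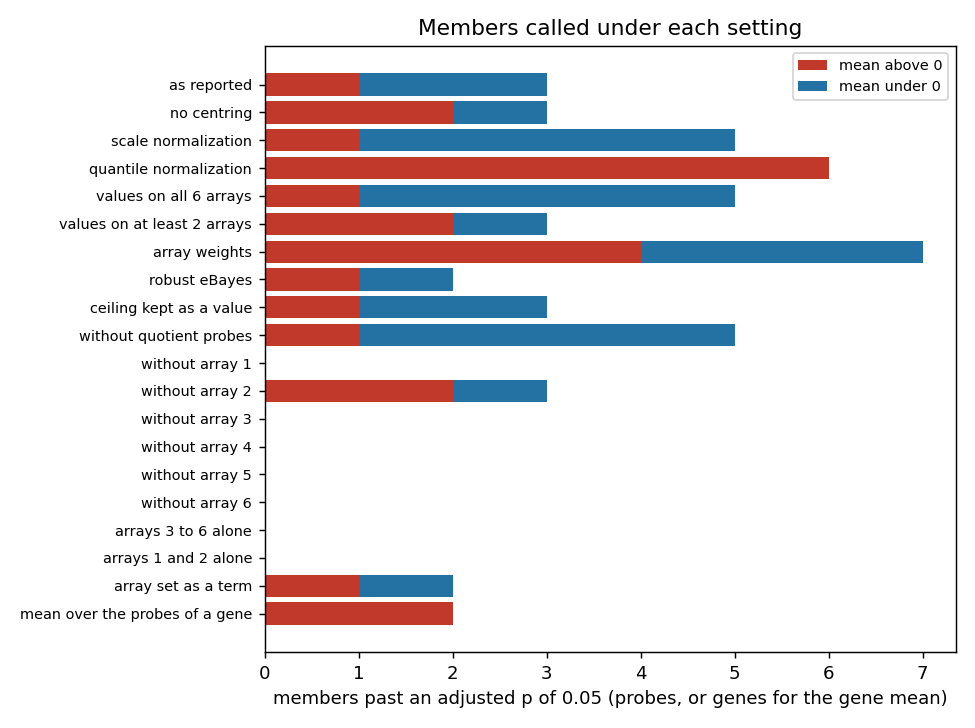
Number of members past a limma adjusted p of 0.05 (horizontal axis) in each fit (one row per setting), with means above 0 in red and under 0 in blue. The count runs from 0, with any one of arrays 1, 3, 4, 5 and 6 left out or with either array set alone, to 7 with array weights.

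Gata2 encodes a zinc-finger factor of blood stem cells, vessel lining and some neurons. Its probe ZA-00030N01 had log2 ratios of 1.42, 0.60, 1.10 and 1.12 on arrays 1, 3, 4 and 5, with no usable value on arrays 2 and 6. All 4 measured arrays were above 0. The mean was 1.06 ± 0.34 (SD, n = 4; 95% confidence interval 0.65 to 1.47), 2.09-fold higher in the knockout RNA, with a limma adjusted p of 0.0392. As deposited, these ratios equal quotients of small whole numbers, 8 to 3, 5 to 3, 9 to 4 and 5 to 2, within 6e-04 in log2. Intensities are not in the table, so the signal behind the probe is unknown.

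The other Gata2 probes lay on the same side. MMC02B08 had 0.28, 0.46, 0.07, 0.68 and 1.18 on arrays 1, 2, 4, 5 and 6, all above 0, with a mean of 0.53 ± 0.42 (n = 5; adjusted p 0.118), and its value on array 3 stood at the ceiling of the table. ZA-00031C13 had values on 3 arrays, 0.27, 2.18 and 0.43, and was not tested. Averaged over its tested probes, the gene had a mean of 0.76 ± 0.27 on 6 arrays, with an adjusted p of 0.0262 in a fit on gene means. Both tested probes had a value on arrays 1, 4 and 5 only. Arrays 2 and 6 rest on MMC02B08 alone and array 3 on ZA-00030N01 alone. With an array left out, means of ZA-00030N01 ran from 0.94 to 1.22, with adjusted p of 0.0472 to 0.119. It passed in 1 of these 6 fits, the one without array 2. Since it has no value on arrays 2 and 6, the fits without either array dropped none of its ratios. That pass is therefore no check on this probe. The probe passed under each of the 3 other scalings. It did not pass in a fit with the array set (arrays 1 and 2 against arrays 3 to 6) as a term. Among red cell markers, 27 probes for Hba-a1, Hbb-bh1, Hbb-y and Alas2 had a median of -0.06, with array medians from -0.19 to 0.24 and 1 call above 0, at 1 of the 17 Hba-a1 probes. Their part in the Gata2 value was not tested. Gata3, the factor of T cells, kidney and sympathetic neurons, had 1.95 on array 3 and -0.12 to 0.40 on the others, with a mean of 0.35 ± 0.81 and no call.

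Nkx2-4 encodes a homeobox protein close to Nkx2-1 that is best known from the ventral forebrain. Its probe ZX-00119L11 had log2 ratios of -0.35, -0.28, -1.25, -0.63, -0.83 and -0.93 on arrays 1 to 6. Every array was under 0, and arrays 1 and 2 were the closest to it. The mean was -0.71 ± 0.37 (n = 6; 95% confidence interval -1.04 to -0.38), 1.64-fold lower in the knockout RNA, with an adjusted p of 0.0425. Its other probe, MMC02D05, did not repeat this, at -0.09, 0.15, 0.45, 0.34, -1.15 and -0.21, with values on both sides of 0 and a mean of -0.08 ± 0.58 (adjusted p 0.818). With an array left out, the mean of ZX-00119L11 stayed between -0.80 and -0.60, and the probe passed in 1 of the 6 fits, the one without array 2, which had 849 calls over all probes. Under quantile normalization its mean was -0.65 and its adjusted p 0.057.

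Foxp1 encodes a forkhead repressor of lung, heart, muscle and lymphocyte development. Its probe PX-00629H22 had -0.25, -0.24, -0.45, -0.23, -0.39 and -0.26 on arrays 1 to 6, a narrow range under 0. The mean was -0.30 ± 0.09 (n = 6; 95% confidence interval -0.46 to -0.15), 1.24-fold lower in the knockout RNA, with an adjusted p of 0.0488. The probe ZX-00145B03 of the same gene lay on the other side on every array, at 0.54, 0.36, 0.27, 0.11, 0.16 and 0.37, with a mean of 0.30 ± 0.16 and an adjusted p of 0.0722. A further probe, PX-00623A16, had 2.46 on array 5 and 0.19 to 0.46 on 4 others, with a mean of 0.76 ± 0.96 (n = 5). The probes of Foxp1 therefore differ in sign, and the transcript forms that they read are unknown here. With an array left out, the mean of PX-00629H22 stayed between -0.32 and -0.27, and it passed in 0 of the 6 fits, with adjusted p of 0.0563 to 0.134, where calls over all probes fell to between 8 and 849. Without centring its mean was -0.20 and its adjusted p 0.0896. Without centring and with quantile normalization the call moved to ZX-00145B03, above 0.

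**Figure D3:**
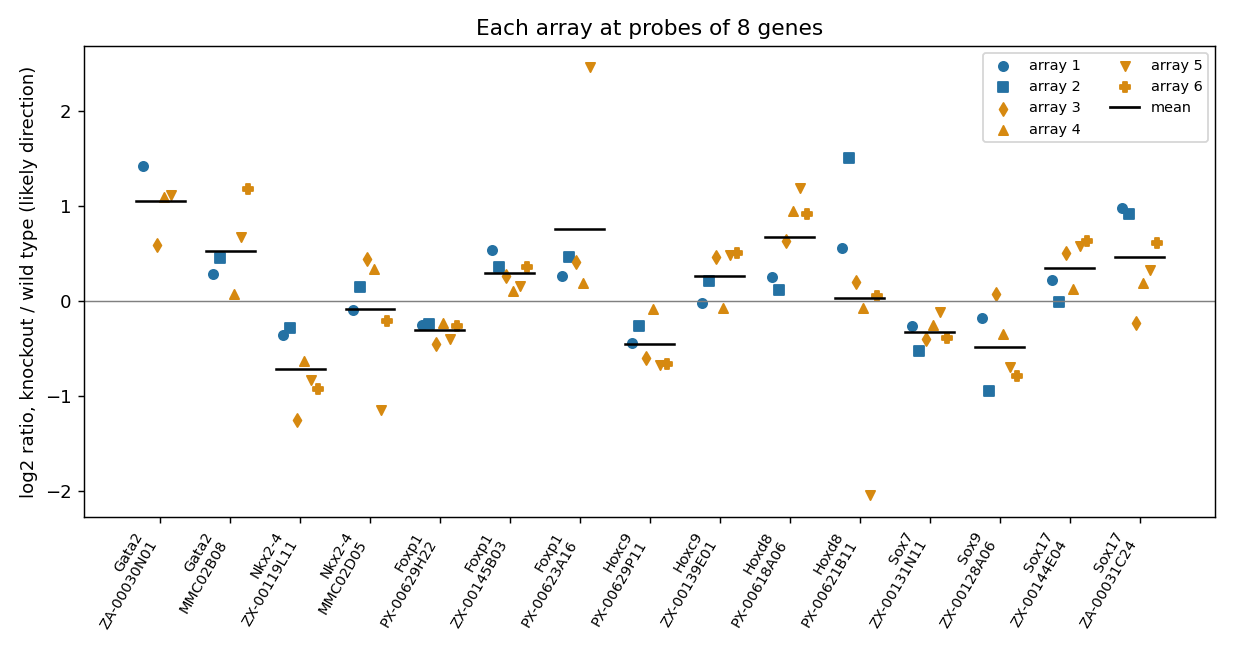
Log2 ratio (vertical axis, knockout over wild type as the likely direction) on each array at 15 probes of 8 genes, with arrays 1 and 2 in blue, arrays 3 to 6 in orange and a black line at each mean. The 4 values of Gata2 ZA-00030N01 lie at 0.60 or above, the 6 values of Nkx2-4 ZX-00119L11 at -0.28 or under, and Foxp1 and Hoxc9 each have probes with means on both sides of 0.

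Sequence just upstream of these 3 genes is shown because Sox proteins as a class bind short A- and T-rich sites in the minor groove. The windows hold the 250 bases before a RefSeq start on build GRCm38.p6, on the gene's own strand, and capitals mark AACAAAG or AACAAT on either strand (CTTTGTT and ATTGTT on the other). The 2 motifs share their first 5 letters but cannot start at the same base.
Nkx2-4 (chr2:147085346-147085595, minus strand): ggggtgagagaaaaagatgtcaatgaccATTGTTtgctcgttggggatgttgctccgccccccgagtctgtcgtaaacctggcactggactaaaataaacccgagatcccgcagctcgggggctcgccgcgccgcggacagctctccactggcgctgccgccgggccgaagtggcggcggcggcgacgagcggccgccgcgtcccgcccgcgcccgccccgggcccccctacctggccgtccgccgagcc
Foxp1, distal start (chr6:99520994-99521243, minus strand): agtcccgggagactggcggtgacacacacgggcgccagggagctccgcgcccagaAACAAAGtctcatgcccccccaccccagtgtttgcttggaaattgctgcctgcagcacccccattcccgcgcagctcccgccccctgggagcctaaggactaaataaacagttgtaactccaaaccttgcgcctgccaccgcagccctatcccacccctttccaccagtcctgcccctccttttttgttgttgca
Foxp1, middle start (chr6:99266516-99266765, minus strand): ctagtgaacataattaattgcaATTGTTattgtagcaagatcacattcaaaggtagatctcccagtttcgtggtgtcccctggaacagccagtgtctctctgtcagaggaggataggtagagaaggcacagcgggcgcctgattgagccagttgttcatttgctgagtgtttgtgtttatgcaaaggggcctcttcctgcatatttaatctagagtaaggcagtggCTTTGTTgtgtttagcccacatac
Gata2, distal start (chr6:88193641-88193890, plus strand): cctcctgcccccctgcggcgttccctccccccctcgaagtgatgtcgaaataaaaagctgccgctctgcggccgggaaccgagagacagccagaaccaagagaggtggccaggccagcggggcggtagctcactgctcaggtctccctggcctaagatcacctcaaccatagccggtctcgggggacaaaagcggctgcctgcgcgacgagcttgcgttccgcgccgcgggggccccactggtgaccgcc

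The Nkx2-4 window holds 1 ATTGTT, which begins 222 bases before the start. The distal Foxp1 window holds 1 AACAAAG at 195 bases, and the middle one holds 1 ATTGTT, 228 bases before its start, with 1 CTTTGTT, 24 bases before it. Both Gata2 windows in the table and the remaining Foxp1 window hold neither motif. Such matches are common: 13.8% of 32851 promoter windows of this length held 1 or both motifs, as did 8 of 62 windows (12.9%) for 47 of the member genes. A match is a string of letters and not a bound site.

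Among the members that act in the pancreatic epithelium and its endocrine cells (Sox9, Isl1, Onecut1 and Nkx2-2), no probe was past the threshold, as against 5.49% of all probes. Sox9, which keeps pancreatic progenitors in their state and marks the ducts, had -0.18, -0.94, 0.08, -0.35, -0.70 and -0.79 on arrays 1 to 6. The values lay under 0 on 5 of 6 arrays, and the mean was -0.48 ± 0.39 (95% confidence interval -0.83 to -0.13), with an unadjusted p of 0.015 and an adjusted p of 0.101. Isl1, a LIM homeobox factor of endocrine cells and of dorsal pancreatic mesenchyme, had 0.23, 0.80, 0.13, -0.05, 0.49 and 0.40. It was above 0 on 5 of 6 arrays, with a mean of 0.33 ± 0.30 and an adjusted p of 0.134. Onecut1, which acts upstream of the endocrine programme, had -0.25, -0.07, 1.84, 0.27 and 0.52 on arrays 1, 3, 4, 5 and 6, on both sides of 0, with a mean of 0.46 ± 0.82.

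Nkx2-2, needed for beta cells, had 4 probes that cite 1 transcript. MMC02H02 gave -0.02, 0.00, -0.16, -0.39, -0.14 and -0.22, with a mean of -0.16 ± 0.14 and an adjusted p of 0.23. MMC03H02 had 1.80 on array 6 and -0.28 to 0.27 on the others, with a mean of 0.33 ± 0.74. The spots of well H09 gave -0.36, -0.32, 1.18 and 3.66 for MMC02H09, at a mean of 1.04 ± 1.89 (n = 4), and 0.01, 0.28 and 3.74 for MMC03H09, which had too few values to be tested. The ratios above 1 were on array 4 in both spots of well H09 and on array 6 in MMC02H09 and MMC03H02, while MMC02H02 stayed at or under 0 on all 6 arrays. Pax2 and Pax8, paired factors that are best known in kidney and thyroid, had means of -0.13 ± 0.20 and 0.62 ± 0.96 (n = 4), and neither was past the threshold. Among the 9 probes of the pancreas markers Cpa1, Nkx6-1, Pdx1 and Ptf1a, the 3 of Cpa1, an acinar and progenitor enzyme, were past the threshold, at -0.41, -0.48 and -0.50. The others were not: Nkx6-1 had means of 0.39 and 0.73, Ptf1a 0.20 and Pdx1 -0.16, 0.05 and 0.10. The median of the list was 0.05. Endocrine markers were read at 11 probes of Gcg, Ins2, Neurod1 and Neurog3, with a median of -0.03, 2 calls above 0 (Ins2) and 1 under 0 (Neurog3).

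Of the members that mark or border other parts of the gut, Cdx2 and Barx2 had means near 0. Cdx2, the factor that sets intestinal identity, had 0.15, 0.30, -0.38, 0.33, -0.26 and -0.08, on both sides of 0, with a mean of 0.01 ± 0.30 (95% confidence interval -0.27 to 0.29). Barx2, a homeobox factor of epithelial buds and muscle, had means of 0.13 ± 0.30 and 0.00 ± 0.28 at its tested probes, and its remaining probe had values on 2 arrays, -0.07 and -0.84. Stomach and intestine markers had 7 probes, for Tff1, Tff2 and Muc5ac, with a median of 0.04 and no call. Their means ran from -0.32, at a Tff1 probe, to 0.91 ± 0.42 for Muc5ac (n = 4; adjusted p 0.0607). Hnf4a was represented by its antisense RNA Hnf4aos alone, at 0.27 ± 0.56.

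The Hox genes, which give position along the body axis, had 9 probes for 7 genes and no call, against 5.49% of all probes. At an unadjusted p under 0.05 there were 4 (44.4%), 2 on each side of 0, against 27.6% of all probes. Hoxc9 and Hoxd8 came nearest to the threshold. The Hoxc9 probe PX-00629P11 had -0.44, -0.26, -0.60, -0.08, -0.68 and -0.66, under 0 on every array, with a mean of -0.45 ± 0.24 and an adjusted p of 0.0522. The Hoxc9 probe ZX-00139E01 lay at 0.26 ± 0.26, above 0 on 4 of 6 arrays, so the 2 probes point opposite ways. Hoxd8 at PX-00618A06 had 0.26, 0.12, 0.64, 0.95, 1.19 and 0.92, above 0 on every array and higher on arrays 3 to 6, with a mean of 0.68 ± 0.42 and an adjusted p of 0.0561. Its other probe, PX-00621B11, ran from -2.05 to 1.51, with a mean of 0.04 ± 1.17. Hoxa4 had the smallest SD of the 100 tested members, with arrays from -0.01 to 0.08, with a mean of 0.03 ± 0.04. Hoxb6 had 0.31, -0.04, 0.18, -1.17, -0.90 and -1.66, low on arrays 4 to 6 and near or above 0 on the others, with a mean of -0.55 ± 0.81. Hoxa10, Hoxb1 and Hoxb5 had means of -0.20, 0.04 and 0.10.

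In the mesenchyme, where Prrx genes mark limb and gut connective tissue, the probes of Prrx1 differed: PX-00616H14 had 1.34 on array 2 and 0.02 to 0.49 on the others, with a mean of 0.49 ± 0.45 and an adjusted p of 0.121. Its other probes had means of -0.06 ± 0.41 and -0.12 ± 0.17. Prrx2 was at 0.05 ± 0.22. The TALE class of homeobox proteins holds Meis and Pbx, which bind beside Hox proteins, and also Tgif and Irx. It had 12 probes for 9 genes and no call even at an unadjusted p under 0.05, against 27.6% of all probes. Meis2 was at 0.07 ± 0.38, Pbx3 at -0.05 ± 0.25, Pbx4 at 0.06 ± 0.26 and Tgif1, a repressor in TGF-beta signalling, at 0.09 ± 0.32 and 0.05 ± 0.13. Tgif2 had means of 0.05, 0.27 and 0.53, the last of them at a probe whose ratios were all quotients of small whole numbers. The Irx genes, which pattern heart and nervous system, were at -0.13 for Irx1, -0.12 for Irx2, -0.31 for Irx4 and -0.63 ± 1.19 for Irx5. Mesenchyme markers were measured at 7 probes of 4 genes (Col1a2, Col3a1, Pdgfra and Vim), had a median of -0.08 and no call.

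Of the factors of vessels, Sox7 was under 0 on every array, at -0.26, -0.52, -0.39, -0.25, -0.11 and -0.39, with a mean of -0.32 ± 0.14 (95% confidence interval -0.50 to -0.14) and an adjusted p of 0.059. Sox17, its close relative in vessel lining and the factor of definitive endoderm, lay on the other side. Its probe ZX-00144E04 had 0.23, -0.01, 0.51, 0.13, 0.58 and 0.64, and ZA-00031C24 had 0.98, 0.92, -0.23, 0.19, 0.33 and 0.62, each above 0 on 5 of 6 arrays. Their means were 0.35 ± 0.27 and 0.47 ± 0.46, with adjusted p of 0.103 and 0.138. The array sets differed in opposite ways: ZX-00144E04 averaged 0.11 on arrays 1 and 2 and 0.46 on arrays 3 to 6. ZA-00031C24 averaged 0.95 and 0.23. Averaged over both probes Sox17 had a mean of 0.41 ± 0.21 and an adjusted p of 0.0496 in the fit on gene means, where Gata2 and Sox17 were the 2 of 69 member genes past the threshold, against 5.82% of all 10818 genes. No probe used here carried the symbol of the endothelial markers Pecam1, Cdh5, Kdr or Tek, so the vessel content of the pools has no value beside these genes.

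The remaining Sox members were Sox8 and Sox5. Sox8, a neural crest and gonad factor, had 0.13, 1.04, 1.28, 0.65 and 2.56 on arrays 1, 2, 3, 4 and 6, all above 0 and spread over a wide range, with a mean of 1.13 ± 0.91 (n = 5) and an adjusted p of 0.107. Sox5, a Sox factor of cartilage and neurons, was at 0.12 ± 0.22 and -0.21 ± 0.22. Of the 7 Sox probes 5 had an unadjusted p under 0.05 (Sox17 at both probes and Sox8 above 0, Sox7 and Sox9 under 0), against 27.6% of all probes, and none was past the adjusted threshold. None of the 7 changed side between arrays 1 and 2 and arrays 3 to 6, against 42% of the tested members and 41.3% of all probes tested.

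Forkhead genes had 15 tested probes for 9 genes, of which 1, the Foxp1 probe above, was past the threshold, or 6.67%, against 5.49% of all probes. At an unadjusted p under 0.05 there were 7 (46.7%), 5 above 0 and 2 under 0, against 27.6% of all probes, 13.6% above 0 and 14% under 0. Foxk2, a forkhead factor of metabolism and autophagy, had means of 0.50 ± 0.56, 0.22 ± 0.26, 0.10 ± 0.70 and -0.21 ± 0.09. The last, ZA-00029D22, was under 0 on every array, from -0.39 to -0.15, and the others had arrays on both sides of 0. Foxo3, a target of insulin signalling, had means of 0.22 ± 0.18, with arrays from 0.00 to 0.45, and -0.22 ± 0.21. Foxp2, best known from brain and lung, was at 0.32 ± 0.26 and above 0 on 5 of 6 arrays. Foxp4 had 0.96, 0.92 and 0.93 on arrays 1, 2 and 4 at a probe with too few values to be tested, and a mean of -0.04 ± 0.27 at the other. Foxi1, Foxs1, Foxn3 and Foxn2 were at 0.58, 0.51, 0.03 and -0.14.

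Some members differed in sign between arrays 1 and 2 and arrays 3 to 6. Lhx6 and Lhx8, LIM factors of forebrain interneurons, and Dlx1, Dlx2 and Dlx6, distal-less factors of the same cells, were under 0 on arrays 1 and 2 and mostly above 0 on the others. Dlx2 had -0.27 and -1.50 on arrays 1 and 2, and 0.09, 0.80 and 2.08 on arrays 4, 5 and 6. Dlx1, its neighbour on the genome and in the next well of the source plate, had -0.43 and -1.17 and then 0.26, 0.59 and 1.65. Lhx6 had -0.17 and -0.76 and then 3.56, 0.37 and 1.77 on arrays 3, 4 and 5. Means of such probes, 0.24 ± 1.32 for Dlx2 and 0.95 ± 1.73 for Lhx6, describe neither set of arrays.

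The share of members with such a split differed between kinds of source plate, a comparison that was not tested, while over all probes the plates hardly differed. Of the 27 tested members on source plates named MMC, 18 had means of opposite sign on arrays 1 and 2 and on arrays 3 to 6, or 66.7%, and 15 of these were under 0 on arrays 1 and 2. Of the 73 members on other plates 24 did, or 32.9%. Of all probes tested, 44% of the 334 on MMC plates did, and 41.3% of the 20913 on other plates. The median SD was 0.81 for members on MMC plates and 0.30 for the others, against 0.67 for all probes on MMC plates and 0.28 for all on other plates. No member probe on an MMC plate was past the adjusted threshold and 3 of 27 (11.1%) had an unadjusted p under 0.05, against 5.69% and 24.9% of all probes on MMC plates. A limma test of the difference between the 2 sets of arrays called 0 of 100 members and 0% of all 21230 probes at an adjusted p under 0.05. At an unadjusted p it called 14 members, 11 of them higher on arrays 3 to 6, against 15.4% of all probes.

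**Figure D4:**
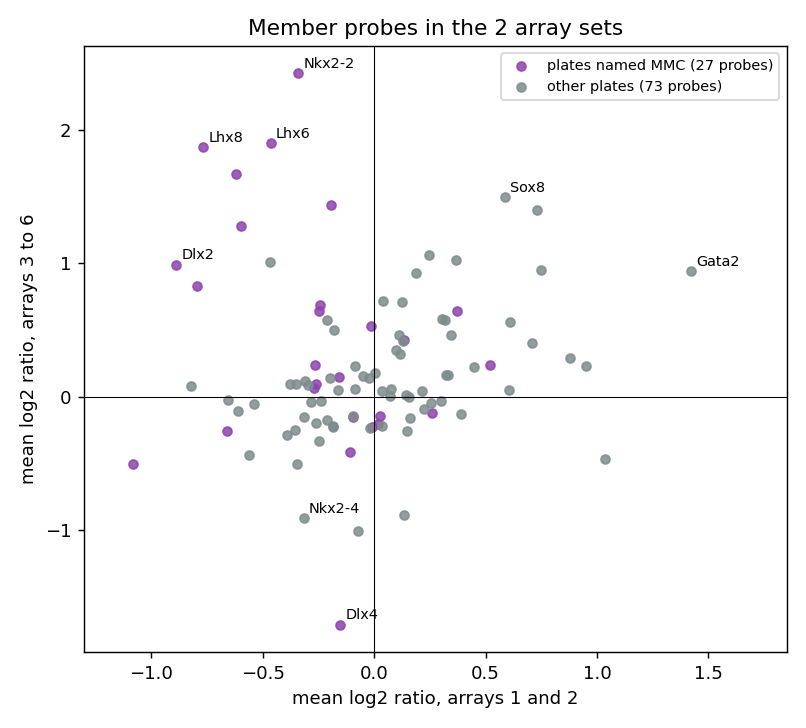
Mean log2 ratio of each tested member on arrays 1 and 2 (horizontal axis) and on arrays 3 to 6 (vertical axis), for 27 probes on plates named MMC and 73 on other plates. The upper left corner, under 0 on arrays 1 and 2 and above 0 on the others, holds 15 MMC probes and 14 others. The labelled points highest in it, for Nkx2-2, Lhx6, Lhx8 and Dlx2, are MMC probes.

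Other members of these classes gave means of either sign. Dlx3, Dlx4 and Dlx5, which act in skin, placenta and bone, were at -0.79 ± 0.97 (n = 4), -1.09 ± 1.58 (n = 5) and -0.02 ± 0.25. Dlx4, the lowest mean of all members, had 0.25 and 0.23 on arrays 5 and 2 and -3.43 on array 6. The highest mean, 1.27 ± 1.29 (n = 5), belonged to a probe of Nkx2-6, a factor of pharynx and heart, whose ratios were all quotients of small whole numbers. The other Nkx2-6 probe was at 0.45 ± 0.52. Nkx2-9 had 2.86 on array 6 and a mean of 0.37 ± 1.24. Otx2, which specifies the anterior brain, had -1.11 on array 2 and -0.32 to -0.14 on the others, all under 0, at a mean of -0.39 ± 0.36 and an adjusted p of 0.129. Pou4f1, a sensory neuron factor, had 3.35 on array 5 and -0.33 to 0.33 on the rest, and Pou3f2 had 2.39 on the same array. Isl2, of motor neurons, was at 0.85 ± 0.89 (n = 4) and Pax3, of neural crest and muscle precursors, at 0.42 ± 0.32 and 0.04 ± 0.22. Pou6f1 was at 0.49 ± 0.45, -0.05 and -0.24, Pou5f2 at -0.28, Msx3 at -0.17 and -0.05, and Lhx9 at 0.09 and -0.02. Neuron and neural crest markers were measured at 9 probes for Tubb3, Elavl4 and Stmn2. Their median was 0.34, with array medians from 0.11 to 0.49. There were 2 calls, both above 0, or 22.2%, against 5.49% of all probes. They were Elavl4 PX-00631C18 at 0.90 (n = 4) and Tubb3 PX-00634M05 at 0.39. The other marker probes had means from -0.05 to 0.65. The part of such cells in the member values was not tested.

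The 8 antisense RNAs had 11 probes, with means from -0.29 to 0.52 and no call. Hoxaas3, from the HoxA cluster, was under 0 on every array, from -0.66 to -0.02, with a mean of -0.29 ± 0.23 and an unadjusted p of 0.024. Hoxd3os1 was at -0.21 and -0.10, Hoxb5os at -0.02, Sox6os at -0.19 and Lhx1os at -0.13 ± 0.19. Sox5os3 had means of 0.52 ± 0.97 and -0.28 ± 0.63, and Dlx6os2 had 0.24 and 0.01. The strand that these probes read is unknown here, so each RNA and its sense partner cannot be told apart.

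Among the 69 genes, 35 had every tested probe above 0 and 24 had every tested probe under 0. Of the 24 genes with several tested probes, 10 had probes on both sides of 0, or 41.7%, against 53.4% of the 3965 such genes on the array. The number of probes per gene was not matched, and a gene with more probes has more room for both signs. The 2 shares are therefore not directly comparable. A mean of 0.5 or more in size was reached by 23 member probes, of which 19 had an SD above 0.5. The 4 others were the called probes of Gata2 and Nkx2-4, Hoxd8 at 0.68 and Gata2 at 0.53.

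Factors of the same families or their partners that the rule leaves out were read from a separate list of 57 genes, of which 27 had tested probes, 52 in all. Of these probes 8 were past the threshold, or 15.4%, 1 above 0 and 7 under 0, against 5.49% of all probes. Above 0 was Hhex, a homeobox factor of foregut and liver bud, at 1.30 ± 0.55 (n = 5), with ratios that were all quotients of small whole numbers. Under 0 were Eya2, both probes of Dach1, Six5, Foxa1, 1 probe of Foxa3 and 1 of 10 probes of Sox11. Of the 8 calls 4 sat in a run of 9 consecutive wells of plate MMC02, D12 and E01 to E08, in which all 9 probes had means under 0. The bounds of the run were not fixed beforehand, so its counts are a description and not a test. No member lies in that run. The next well, E09, holds a Neurog3 probe whose mean was also under 0, at -0.32 ± 0.33, and the Dlx probes begin in the well after that. Sox11 was at -0.71 ± 0.36 at the called probe. Its other probes had means from -0.08 to 1.32, all but the lowest above 0. Eya2 was at -1.99 ± 0.61 and Foxa1 at -0.65 ± 0.31. Foxa3 was at -0.64 ± 0.17 at the called probe and at -0.15 ± 0.23 at its other probe (limma adjusted p 0.346). The list's median was -0.02, against 0.05 for the members. The difference between the 2 lists was not tested.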

How the data were processed

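RNA was measured on 6 spotted arrays. Per the labels, channel 2 held the knockout RNA and channel 1 the wild-type RNA. The deposited table holds log2 ratios. The base is set by its ceiling, log2 of 1e+05, which was treated as missing. The sources used here give neither dyes nor normalization, so how the authors scaled, centred and directed the ratios is unknown. The deposited medians were -0.01, 0.08, 0.14, 0.07, 0.20 and 0.14 on arrays 1 to 6, and 439 to 1654 probes per array had no value. Median absolute deviations were 0.27 to 0.545, the highest on array 2. The number of arrays limits the precision.

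Arrays were centred on their medians. Differences from 0 were tested with limma 3.58.1 in R 4.3.3 (lmFit and eBayes, intercept only, two-sided, Benjamini-Hochberg over 21247 probes). The fit was also run on simulated independent normal noise with each probe's SD and missing values. That noise holds no difference between array sets and no quotient ratios, so it bears on the code and not on these calls. Symbols were looked up by Entrez ID for 102 of 104 member probes in a RefSeq table, and the 2 of Dlx6os2 kept the annotation's symbol. Promoters are from RefSeq. Figures were drawn with matplotlib 3.10.9.

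Named were all member probes past the threshold with the other probes of those genes, probes of 19 of 56 listed genes with a role in or near the pancreas bud, and the probe with the smallest p in each family. Other members were named after their values were seen. Members and lists were chosen with earlier results of these data known. Alternatives were other scalings, filters, weights and subsets of arrays.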

Additional observations from a re-analysis of the deposited data

Results flagged for a closer look

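Dixon's ratio was computed for 43 named member probes with 4 to 6 values and for 2 measures per array (the median and the spread of the members). In 7 probes, and in 0 of the 2 measures, 1 array was further from its nearest neighbour than the 95% critical value allows. About 1 in 20 such groups would be picked by chance.

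Array 5 stood out in 3 probes. Foxp1 PX-00623A16 read 2.46 there and 0.19 to 0.46 elsewhere, with a mean of 0.33 over the rest. Pou4f1 read 3.35 there and -0.33 to 0.33 elsewhere. Lhx1os read -0.50 there and -0.11 to 0.06 elsewhere. Gata3 read 1.95 on array 3 and -0.12 to 0.40 elsewhere. Nkx2-2 MMC03H02 read 1.80 on array 6 and -0.28 to 0.27 elsewhere. Array 2 stood out in Otx2, which read -1.11 there and -0.32 to -0.14 elsewhere, and in Prrx1 PX-00616H14, which read 1.34 there and 0.02 to 0.49 elsewhere.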

How the results depend on the processing

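No paired analysis was possible because each array gives 1 ratio of both RNAs and there is 1 group of arrays. Against 3 member calls (1 above 0, 2 under 0) and 1166 over all probes, scale normalization gave 5 (4 under 0; 1786 in all), quantile normalization 6 (6 above 0, 0 under 0; 1789), array weights 7 (4 above 0; 2402), probes on all 6 arrays 5 (4 under 0) and leaving out probes with over 50% quotient ratios 5 (4 under 0). No centring gave 2 above 0 and 1 under 0, a minimum of 2 arrays the same counts, and robust eBayes 1 above 0 and 1 under 0. Gene means gave 2 above 0 and 0 under 0 (630 genes in all). The array set as a term gave 1 above 0 (Hoxd8) and 1 under 0 (Nkx2-4), with 695 in all, and the called probes of Gata2 and Foxp1 did not pass. Arrays 3 to 6 alone gave 0 on both sides (11 in all, with 25 members at a limma unadjusted p under 0.05). Arrays 1 and 2 alone gave 0 (0 in all, with 14 members and 2960 probes at that p). With 1 array left out, member calls ran from 0 to 3 (0 to 2 above 0, 0 to 1 under 0) and all calls from 8 to 849. The median of the member means was 0.16 without centring, 0.17 with quantile normalization, 0.09 on arrays 3 to 6 and -0.060 on arrays 1 and 2, and 0.05 to 0.09 with an array left out. The cause of these moves was not tested. No called value changed sign in any alternative, while 16 of 43 named probes, none of them called, had a mean that did. Signal over background is unknown here, and the number of arrays limits the precision.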

Other observations

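At 7 member values the deposited ratio stood at the ceiling of the table, and 6% of the tested members had such a value, against 2.74% of all tested probes. These were Dlx1, Foxp4, Gata2 (MMC02B08), Irx5 and Lhx6 on array 3, Tgif2 on array 2 and Foxk2 on array 5. More than 50% of the usable ratios were quotients of whole numbers up to 20 in 8 tested member probes, or 8%, against 12% of all tested probes. They were the called Gata2 probe, the probes of Irx5 and Isl2, and 1 probe each of 5 further genes. These were Nkx2-6 ZX-00124L05, Tgif2 PX-00627D01, Hoxd8 PX-00621B11, Prrx1 ZX-00127P18 and Dlx6os2 ZX-00143H15. Hoxd8 PX-00618A06 and Prrx1 PX-00616H14 were not among them.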
